A study of Mus musculus with 16 samples.

Results

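Cholesterol synthesis genes were taken by a fixed list of 8 symbols (Hmgcs1, Mvd, Idi1, Fdps, Fdft1, Sqle, Lss and Cyp51), each looked up by name in the gene table. No threshold on measured values enters the list. A row was found for 7 of the 8 among 20056 symbols, and Idi1, the isomerase that makes dimethylallyl diphosphate, was not analysed here. The 16 libraries are RNA-seq of mouse cells sorted as mesenchymal stem cells (MSCs) or as osteoblasts (OBs). They form 4 groups of 4: wild-type MSCs, miR-9-1-deficient MSCs, wild-type OBs and miR-9-1-deficient OBs, and the deficient mice were made by CRISPR/Cas9 editing of the microRNA locus miR-9-1. Each animal number in the labels has 1 MSC and 1 OB library. Letters stand for these numbers here, A, B, C and D for wild-type mice, and E, F, G and H for deficient mice. The labels give no age, sex, strain background, number of founder lines or sort gate, and nothing but the animal number says that libraries of a group are separate animals, so p-values measure the spread between these libraries.

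Cells make cholesterol from acetyl-CoA through mevalonate. The mevalonate part of the route ends in farnesyl diphosphate, a branch point that also feeds protein prenylation, dolichol and ubiquinone. From there squalene synthase commits carbon to sterols, and the squalene is oxidised, cyclised to lanosterol and trimmed to cholesterol. The enzyme genes are classical targets of the transcription factor SREBP-2, which is held in the endoplasmic reticulum by SCAP and INSIG proteins when sterol is plentiful and is released to the nucleus when sterol is scarce. The oxysterol receptors LXR act in the other direction, on genes of cholesterol export.

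The members span the route. Hmgcs1 (chr13:119690379-119708260, plus strand) encodes the cytosolic HMG-CoA synthase, an early enzyme of the route. Mvd (chr8:122433601-122443422, minus strand) encodes mevalonate diphosphate decarboxylase, which makes isopentenyl diphosphate, the substrate of Idi1 (chr13:8885501-8892451, plus strand). Fdps (chr3:89093588-89101959, minus strand) encodes farnesyl diphosphate synthase, the target of nitrogen-containing bisphosphonate drugs used against bone loss. Fdft1 (chr14:63145150-63179578, minus strand) encodes squalene synthase, and Sqle (chr15:59315077-59331192, plus strand) encodes squalene epoxidase. Lss (chr10:76531588-76557138, plus strand) encodes lanosterol synthase and Cyp51 (chr5:4081145-4104746, minus strand) the lanosterol 14-alpha-demethylase. All are protein-coding genes, with spans from the GENCODE M21 annotation of GRCm38/mm10.

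Promoters are shown because most of the measured members varied together between libraries. Any part of the promoters in this was not tested. RefSeq promoter sequences on GRCm38.p6, running from 250 bases before to 50 bases after the start of the gene, were given for 5 of the 8 genes (Hmgcs1, Mvd, Idi1, Lss and Cyp51). Those of Fdps, Fdft1 and Sqle are therefore missing, and the level of Idi1 was not analysed here. Capitals mark matches, on either strand, to TCACNNCA, the core of the sterol regulatory element that SREBP binds, and to CCAAT, the box bound by NF-Y (read as ATTGG on the other strand).

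Hmgcs1 (chr13:119690101-119690400, plus strand): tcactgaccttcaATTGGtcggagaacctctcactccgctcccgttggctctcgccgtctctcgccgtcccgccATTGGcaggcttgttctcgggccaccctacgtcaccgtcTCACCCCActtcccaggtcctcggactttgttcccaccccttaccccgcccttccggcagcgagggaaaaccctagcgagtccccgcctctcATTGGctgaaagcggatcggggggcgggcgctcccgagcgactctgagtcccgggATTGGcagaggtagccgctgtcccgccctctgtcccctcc
Cyp51 (chr5:4104648-4104947, minus strand): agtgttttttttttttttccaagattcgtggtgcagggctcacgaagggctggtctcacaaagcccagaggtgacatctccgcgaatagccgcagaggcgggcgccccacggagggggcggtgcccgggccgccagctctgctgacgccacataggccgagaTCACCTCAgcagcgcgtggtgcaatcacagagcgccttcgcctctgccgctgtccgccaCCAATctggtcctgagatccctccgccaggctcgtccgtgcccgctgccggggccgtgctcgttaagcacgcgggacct
Mvd (chr8:122443373-122443672, minus strand): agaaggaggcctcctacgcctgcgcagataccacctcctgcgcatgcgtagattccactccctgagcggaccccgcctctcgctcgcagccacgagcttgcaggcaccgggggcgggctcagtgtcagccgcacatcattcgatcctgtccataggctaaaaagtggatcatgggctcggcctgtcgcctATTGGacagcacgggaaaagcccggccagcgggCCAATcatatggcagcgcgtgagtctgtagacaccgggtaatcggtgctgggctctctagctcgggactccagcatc
Lss (chr10:76531355-76531654, plus strand): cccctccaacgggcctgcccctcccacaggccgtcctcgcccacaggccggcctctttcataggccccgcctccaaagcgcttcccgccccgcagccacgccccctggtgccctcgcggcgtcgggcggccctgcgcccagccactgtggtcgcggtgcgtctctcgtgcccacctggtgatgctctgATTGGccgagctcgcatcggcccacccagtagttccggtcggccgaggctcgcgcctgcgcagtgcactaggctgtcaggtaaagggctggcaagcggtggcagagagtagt

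The sterol element core was found in Hmgcs1 (TCACCCCA, at base -137 from the start) and in Cyp51 (TCACCTCA, at base -88), and not in the windows of Mvd, Idi1 or Lss. It was present in 13.8% of 27025 mouse promoters of this length, so a match by itself is common. CCAAT was found in all 5 promoters, against 37.9% of all, and the GC box GGGCGG also in all 5, against 35.9%. Sterol core and CCAAT stood together in 2 of the 5, against 5.22% of all, and in 7 of the 15 cholesterol synthesis genes with a promoter given, other enzymes of the route included. No matches shared bases in these windows. A match is a description of the letters, not evidence of binding.

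The disrupted locus encodes miR-9-5p, which is shown with its seed (bases 2 to 8) in capitals because a gene it acts on directly would usually carry a match to that seed.

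mmu-miR-9-5p (chr3:88215613-88215635, plus strand): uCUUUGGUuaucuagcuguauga

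The 7-base match to this seed, ACCAAAG, was present in 0 of 8 longest annotated 3′ UTRs of the members, including that of Idi1, and in 12.2% of the 20987 longest 3′ UTRs of mouse genes. A count over 8 genes is too small to differ clearly from that share. Some of these 3′ UTRs are short, with 55 bases in Fdps, 275 in Sqle and 494 in Mvd. Other kinds of match were not searched for, and direct action on the members was not tested. Mir9-1 itself had 0 reads in all 8 MSC libraries and more than 0 in 4 of 8 OB libraries, too few to check the genotype from this table.

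Depth ran from 10148197 to 14246986 reads in MSCs and from 15543693 to 18962771 reads in OBs. The deposited values are read counts divided by 1 size factor per library, called normalized counts below. The lowest member value behind any result was 19 reads, for Mvd in deficient MSC mouse G. Markers of the sorts went partly against the labels. The summed level of 6 osteoblast markers was 631410.0 to 843446 in wild-type MSC libraries and 171603 to 453205 in deficient ones, but 95835 to 206903 in wild-type and 10293 to 58275 in deficient OB libraries. Of 5 blood progenitor markers, the sum was 2331 to 4579 in MSC and 13369 to 16387 in OB libraries, so the OB libraries are named by their label only. The sum of 7 neutrophil markers was higher in MSC libraries, at 28165 (D) to 116847 (B) in wild-type and 29127 to 59639 in deficient ones. In OB libraries it was 7802 to 27739 in wild-type and 7670 to 10452 in deficient ones. The part of neutrophils in the results was not tested. No osteoblast or stromal marker was at 0 throughout a group. Xist and the Y-linked Ddx3y were both above 0 in all 16 libraries, so a transcript typical of each sex was present in each. Xist ran from 291 to 14158 in MSC and from 3719.5 to 8053 in OB libraries, and Ddx3y from 29.8 to 3355 and from 649 to 1939, so the MSC libraries differed widely in both. Their part in the results was not tested. In bulk RNA, fewer cells of a type and less RNA per cell cannot be told apart.

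Read per kilobase of the longest transcript, which allows genes to be compared, Hmgcs1 had the highest level in wild-type MSCs, at 547 ± 112 normalized counts per kilobase (SD, n = 4). Cyp51 (319.8 ± 114), Fdps (287 ± 90.5) and Sqle (275 ± 129) followed, overlapping one another widely, and Cyp51 and Sqle also reached into the range of Hmgcs1. Fdft1 stood at 193 ± 21.6, within the range of Sqle. Mvd (89.3 ± 19.1) and Lss (47.4 ± 9.36) came last, and neither overlapped its neighbour in this order. In wild-type OBs the order of the means began with Hmgcs1 (313 ± 100.5), Cyp51 (238 ± 46.1), Sqle (207 ± 33.8) and Fdps (175 ± 56.9), and again ended with Fdft1 (95.6 ± 13.2), Mvd (68.8 ± 19.1) and Lss (44.4 ± 12.7).

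The series asks how miR-9-1 acts in cells of the bone marrow niche that supports lymphocyte formation, and the first comparison is by genotype within each sort. In deficient MSCs the mean level was lower than in wild-type MSCs for Hmgcs1, Mvd, Fdps, Sqle and Cyp51, while Fdft1 and Lss differed by less than the spread between libraries, but no member passed the test across all genes. In OBs the deficient mean lay below the wild-type mean for all 7, and again none passed. The log2 difference in OBs was below 0 for 56.2% of all genes. The MSC result turned on 1 library, deficient mouse F, whose levels lay within or above the wild-type range for 6 of 7 members.

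**Figure D1:**
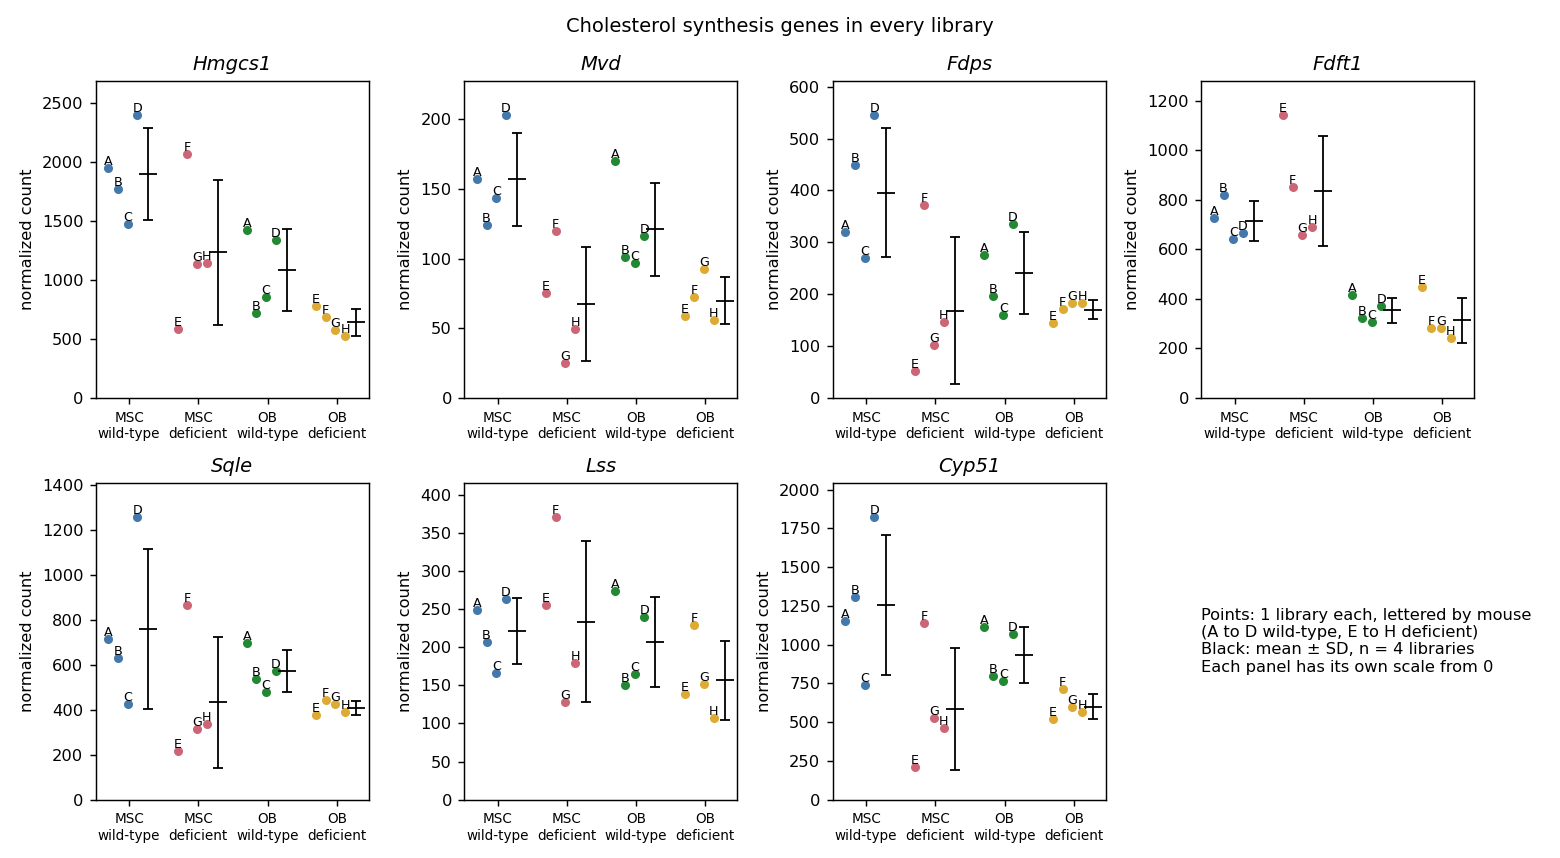
Normalized counts (vertical axis, from 0, own scale in each panel) of the 7 members in every library, grouped by sort and genotype; points are libraries lettered by mouse, and black marks give mean ± SD (n = 4). In deficient MSCs mouse F stands above E, G and H for 6 of 7 genes; the deficient OB libraries spread less than the wild-type ones, as SD relative to the mean, for 5 of 7 genes and more for Fdft1 and Lss.

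Hmgcs1, the first enzyme of the list, was at 1945, 1767, 1472 and 2397 normalized counts in wild-type MSCs (mice A, B, C and D) and at 588, 2067, 1132 and 1146 in deficient MSCs (E, F, G and H). In OBs it was at 1419.6, 719, 855 and 1339.8 in wild-type and at 780.2, 684, 577 and 528 in deficient mice. Deficient E, G and H lay below every wild-type MSC library while F lay among them, and in OBs only the deficient E library exceeded the lowest wild-type value. The mean was 1895 ± 387 against 1233 ± 614 in MSCs and 1083 ± 348 against 642 ± 113 in OBs (SD, n = 4). The log2 difference was -0.74 ± 0.31 in MSCs (SE, adjusted p = 0.190) and -0.71 ± 0.22 in OBs (adjusted p = 0.379), by limma with Benjamini-Hochberg adjustment over all genes, as are all adjusted p-values below unless another tool is named.

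Mvd, the decarboxylase, was at 157, 124, 143 and 203 in wild-type MSCs and at 75.1, 119.9, 24.8 and 49.7 in deficient MSCs. Among OB libraries Mvd was at 169.7, 101, 96.4 and 116 in wild-type and at 58.8, 72.3, 92.8 and 55.6 in deficient mice. Here the genotypes did not overlap in either sort, although F came within a few counts of the lowest wild-type MSC library and G within a few counts of the lowest wild-type OB library. The mean went from 157 ± 33.5 to 67.4 ± 40.6 in MSCs and from 121 ± 33.6 to 69.9 ± 16.9 in OBs. Its log2 difference was -1.40 ± 0.44 in MSCs (adjusted p = 0.112) and -0.77 ± 0.24 in OBs (adjusted p = 0.379).

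Fdps, at the branch point, was at 319, 449, 270.0 and 546 in wild-type MSCs and at 51.6, 372, 102 and 146 in deficient MSCs. The OB libraries had 275, 196, 159.7 and 335 in wild-type and 145, 171, 183 and 183 in deficient mice. Mouse E had the lowest value of the series, E, G and H lay below all wild-type MSC libraries, and F was among them. The OB groups overlapped. With means of 396 ± 125 and 168 ± 142, its log2 difference of -1.54 ± 0.49 was the furthest from 0 among the members in MSCs (adjusted p = 0.115). OB means were 241 ± 78.6 and 170.4 ± 18.1, a difference of -0.45 ± 0.22 (adjusted p = 0.586).

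Fdft1, which commits farnesyl diphosphate to sterols, did not follow that pattern in MSCs. It was at 726, 821, 641 and 666 in wild-type and at 1142, 852, 658 and 688 in deficient MSCs, so that E, the lowest deficient library for Fdps, was the highest of all for Fdft1. Its OB values were 414, 324, 305 and 371 in wild-type and 448, 282, 281 and 244 in deficient mice, with E again the highest. The difference was 0.20 ± 0.19 in MSCs (713 ± 79.9 against 835 ± 222, adjusted p = 0.552) and -0.20 ± 0.19 in OBs (353 ± 48.9 against 314 ± 91.4, adjusted p = 0.767), within the spread between libraries in both.

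Sqle, often named a control point of the sterol part of the route, was at 716, 630.5, 427 and 1259 in wild-type MSCs and at 215, 865, 315 and 339 in deficient MSCs. In OBs it was at 699, 535, 479.9 and 573 in wild-type and at 376, 444, 427 and 392 in deficient mice. Wild-type MSCs spread over a wider range of counts than the deficient ones. As SD relative to the mean, the deficient MSCs spread more (67.5% against 46.9%). The MSC genotypes overlapped, whereas the OB genotypes did not. The difference was -0.90 ± 0.41 in MSCs (758 ± 356 against 433 ± 293, adjusted p = 0.220) and -0.47 ± 0.12 in OBs (572 ± 93.1 against 409.5 ± 31.1, adjusted p = 0.276).

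Lss was at 248, 207, 166 and 263 in wild-type MSCs and at 255, 371, 128 and 179.7 in deficient MSCs, with F the highest and G the lowest of the 8. Its values in OBs were 274, 150.2, 165 and 239 in wild-type and 139, 229, 151 and 107 in deficient mice. Both pairs of groups overlapped. The MSC difference was -0.011 ± 0.32 (221 ± 43.7 against 233 ± 106, adjusted p = 0.988), so the mean of counts and the log2 difference have opposite signs. It was above 0 with quantile normalization, edgeR and DESeq2 (0.0839, 0.0936 and 0.0986) and no direction is given for it. In OBs it was -0.41 ± 0.26 (207 ± 59.3 against 157 ± 52.0, adjusted p = 0.661).

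Cyp51 was at 1156, 1308, 738 and 1826 in wild-type MSCs and at 211, 1143, 524 and 460.3 in deficient MSCs. OB values of Cyp51 were 1115, 797, 763 and 1067 in wild-type and 523, 712, 599 and 565 in deficient mice. E, G and H lay below all wild-type MSC libraries and F between C and A, while all 4 deficient OB libraries lay below all 4 wild-type ones. The difference was -1.28 ± 0.43 in MSCs (1257 ± 449 against 585 ± 396, adjusted p = 0.125) and -0.63 ± 0.14 in OBs (936 ± 181 against 599.9 ± 80.9, adjusted p = 0.233).

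Across all genes, limma called 159 of 14964 in MSCs (1.06%) and 4 of 14229 in OBs (0.0281%), with a call at an adjusted p under 0.05. Of the 7 members, which all passed the filter on low values in every comparison, 0 were called in either sort, and edgeR also called 0 in both. At an unadjusted p under 0.05, 4 of 7 members were lower in deficient MSCs (Hmgcs1, Mvd, Fdps and Cyp51) against 12.1% of all genes. In OBs 4 of 7 were lower (Hmgcs1, Mvd, Sqle and Cyp51) against 4.78% of all genes, and 0 were higher in either sort. Groups did not overlap, with the deficient lower, for 1 of 7 in MSCs (Mvd) against 6.10% of all genes, and for 3 of 7 in OBs (Mvd, Sqle and Cyp51) against 2.99%. The median log2 difference of the members was -0.90 in MSCs and -0.47 in OBs, where that of all genes tested was -0.034 and -0.022. DESeq2 called 0 members in MSCs and 3 lower in OBs (Hmgcs1, adjusted p = 0.0332; Sqle, 0.0439; Cyp51, 0.00433), against 0.562% of all genes called lower by that tool.

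**Figure D2:**
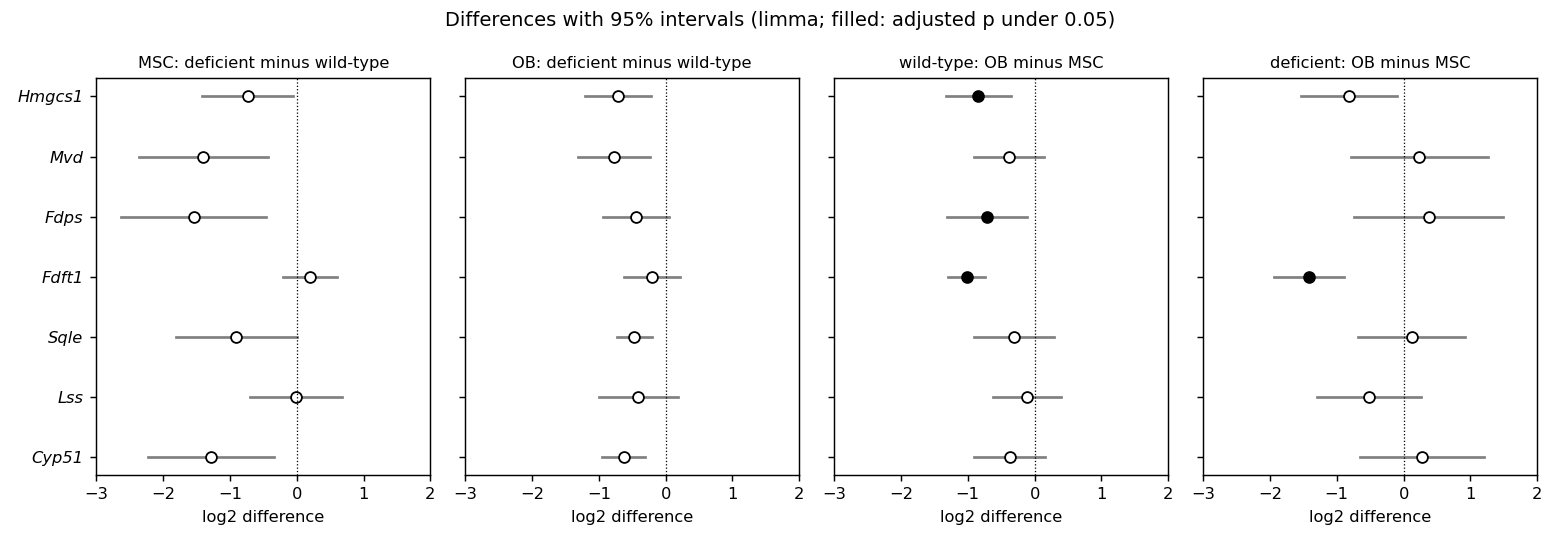
Log2 differences (horizontal axis) of the 7 members with 95% intervals from limma, 1 panel per comparison; filled points have an adjusted p under 0.05. No point is filled for genotype, 3 are filled for wild-type OBs against wild-type MSCs and 1 for the deficient libraries.

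Leaving out deficient MSC mouse F brought 5 of the 7 members past the threshold, all lower, in a fit where 8.26% of all genes were called lower. The adjusted p-values were then 0.0196 for Hmgcs1 (-1.03), 0.0179 for Mvd (-1.74), 0.00633 for Fdps (-2.04), 0.0227 for Sqle (-1.30) and 0.0106 for Cyp51 (-1.69). Fdft1 and Lss did not pass. The same step raised the count over all genes from 159 to 2261. Leaving out any other MSC library gave 0 members.

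As a mean over the 7 members of the log2 level relative to wild-type MSCs, the deficient MSC libraries stood at -1.26 (E), 0.15 (F), -1.20 (G) and -0.92 (H), and the wild-type ones between -0.41 (C) and 0.42 (D). F was the highest deficient library for 6 members and lay below all 4 wild-type libraries for 1 (Mvd), against 5 for E, 6 for G and 5 for H. Wild-type MSCs varied too: C was the lowest for 6 members and D the highest for 6. In OBs the deficient libraries stood at -0.52, -0.37, -0.47 and -0.72 (E, F, G and H) and the wild-type ones from -0.30 (C) to 0.35 (A). These did not overlap, by a narrow gap, and the members were not alone in this. For 12 other synthesis enzymes, described below, the lowest wild-type OB library was at -0.134 (B) and the highest deficient one at -0.183 (F). For 12 uptake genes they were at -0.111 (C) and -0.154 (H).

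Marker sums differed between the deficient MSC libraries. F had the highest sum of stromal (48516 against 32290 to 42977) and blood progenitor markers (2729.5 against 2331 to 2646). As a mean of log2 levels over the same markers it did not stand out. Blood progenitor markers were then at 8.27 in F, 8.51 in E and 8.38 in H, and stromal markers at 12.4 in both F and G. F had the lowest sum of macrophage (786 against 945 to 1589.8), B-lineage (174 against 196 to 254), endothelial (298 against 438 to 792) and adipocyte markers (4884 against 5398 to 7491). Osteoblast markers summed to 236693 in E, 438393 in F, 453205 in G and 171603 in H. Proliferation markers summed to 2222 to 4727 in deficient and 4241 to 5893 in wild-type MSCs. Skeletal muscle markers summed to at most 4666 in the deficient MSCs (H) against at most 234 in the wild-type ones. B-lineage markers summed to 504 to 629 in the wild-type MSCs. In OBs, stromal markers reached 36854 in the deficient F library against 8278 at most in wild-type. The part of these cells or of cell division in the members' levels was not tested. Without the deficient MSC libraries G and H, and without the deficient OB libraries E and F, 0 members were called by limma. The fits with all libraries had also called 0, and the MSC fit without G and H called 0 of 14470 genes. These fits therefore say nothing on the part of such cells.

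Whether the genotype effect differed between the sorts was asked with the interaction over all 16 libraries. Of the 7 members 0 were called in limma (0.0129% of all genes), 0 had an unadjusted p under 0.05 (11.5% of all genes), and edgeR and DESeq2 called 0. Fdps had the largest difference, 1.09 (95% interval -0.19 to 2.37, unadjusted p = 0.0894), and Hmgcs1 the smallest, 0.024 (-0.87 to 0.92). The intervals of the 7 members ran between -1.33 (lower bound of Lss) and 2.37 (upper bound of Fdps), and each held 0.

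The sorts were also compared within each genotype. In wild-type mice, Fdft1 fell by 1.02 on the log2 scale (SE 0.13, adjusted p = 3.22e-05), Hmgcs1 by 0.84 (SE 0.22, adjusted p = 0.00566) and Fdps by 0.72 (SE 0.27, adjusted p = 0.0355), from the MSC to the OB means given above. These 3 of 7 stand against 35.5% of all genes called lower and 34.4% called higher, so the share is near the background. Fdft1 and Hmgcs1 did not overlap between wild-type sorts, which held, with OBs lower, for 32.9% of all genes, so this too is not above the background. The call of Fdps was lost without wild-type MSC B (adjusted p = 0.0850) or D (0.0943), or OB B (0.0877) or C (0.103), and with quantile normalization (0.0588). With the mouse as a block Cyp51 was called as well (-0.37, adjusted p = 0.0437). Mvd, Sqle and Lss were at -0.39 ± 0.24, -0.31 ± 0.27 and -0.12 ± 0.23, and Lss was above 0 with quantile normalization (0.0254).

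Among deficient libraries 1 of 7 members was called lower in OBs, Fdft1 (-1.42 ± 0.23, adjusted p = 0.000681), against 30.6% of all genes called lower and 29.0% called higher. Hmgcs1 was just short of the threshold (-0.82 ± 0.32, adjusted p = 0.0507) and passed with the mouse as a block (adjusted p = 0.0343), with edgeR, with DESeq2 and with a pseudocount of 5. Mvd, Fdps, Sqle and Cyp51 had values of 0.24 ± 0.46, 0.38 ± 0.50, 0.12 ± 0.36 and 0.28 ± 0.41, whose sign changed with 1 library left out (E for Fdps, Sqle and Cyp51, G for Mvd). Without mouse F's MSC library, Fdps (0.88, adjusted p = 0.0495) and Sqle (0.52, adjusted p = 0.0343) passed as higher in OBs. That fit called 4437 of 14401 genes higher, so these calls are not above the background. Blood progenitor and proliferation markers also separated the sorts, the latter at 16111 to 22869 in OBs. Erythroid markers summed to 1735 to 4837 in deficient MSCs and 6192 to 9205 in deficient OBs. Endothelial markers summed to 298 to 792 and 2436 to 3175, but overlapped as a mean of log2 levels. The part of all these markers in the differences between sorts was not tested.

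The other enzymes of the route were read from a list of 12 genes. None was called in either sort by limma. In MSCs 4 of 12 were lower at an unadjusted p under 0.05 (among them Mvk, Hsd17b7 and Sc5d), against 12.1% of all genes, and the median log2 difference was -0.48. Mvk, mevalonate kinase, was at 298, 337, 225.5 and 275 in wild-type and at 181, 179, 189.5 and 129 in deficient MSCs. It was the only one of the 12 without overlap, which held, with the deficient lower, for 6.10% of all genes. This count is near the background. F did not stand out for Mvk (-0.74 ± 0.22, adjusted p = 0.0970). Msmo1, the C4-methyl sterol oxidase, was at -0.79 ± 0.44 (adjusted p = 0.304). Hsd17b7, Dhcr7, Sc5d and Nsdhl, all acting after lanosterol, lay between -0.77 and -0.44. Acat2, Pmvk, Tm7sf2 and Ebp had values from -0.11 to 0.29, and those of Pmvk, Tm7sf2 and Ebp changed sign when single libraries were left out.

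In OBs 6 of the 12 were lower at an unadjusted p under 0.05 (4.78% of all genes) and 5 did not overlap (2.99% of all genes). Those without overlap included Msmo1 (-0.64 ± 0.20, adjusted p = 0.379), Hsd17b7 (-0.77 ± 0.20, adjusted p = 0.292) and Dhcr7 (-0.28 ± 0.11, adjusted p = 0.494), each lower in all 4 deficient libraries. Sc5d was at -0.30 ± 0.11, and Acat2, Mvk, Pmvk, Nsdhl, Ebp and Tm7sf2 lay between -0.25 and 0.30.

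**Figure D3:**
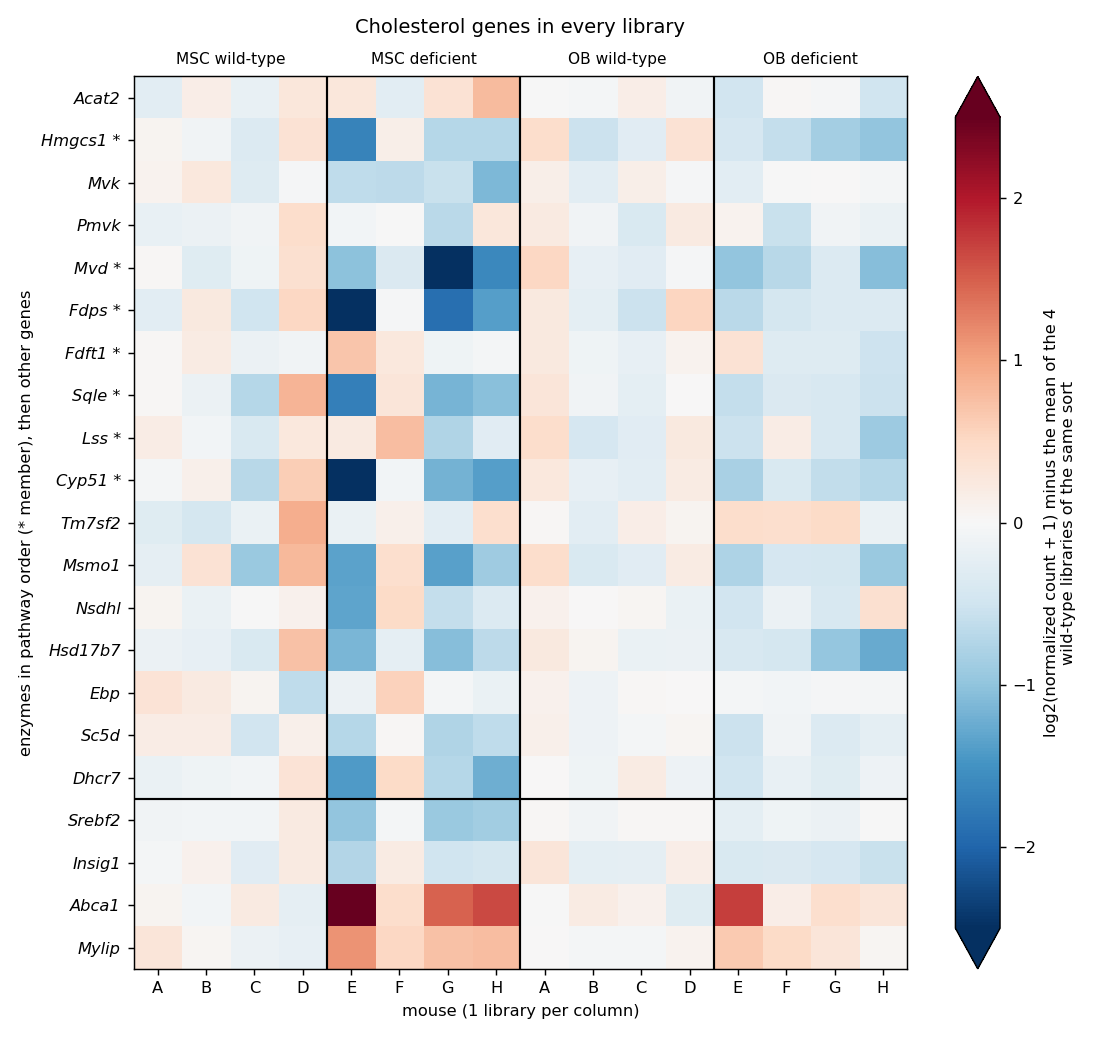
Heat map of log2(normalized count + 1) minus the wild-type mean of the same sort (colour) for synthesis enzymes in pathway order (members starred) and 4 other cholesterol genes, 1 column per library. In deficient MSCs the columns of E, G and H are blue for most enzymes and that of F is not, and Abca1 and Mylip run the other way.

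Enzyme levels between sorts did not share 1 direction along the route. Of the 12, 2 were called higher and 4 lower in wild-type OBs than in wild-type MSCs, where 34.4% of all genes were called higher and 35.5% lower, so these counts are not above the background. Dhcr7, which acts late in the route, was 1.21 ± 0.15 higher on the log2 scale (adjusted p = 3.33e-05), while Tm7sf2 fell by 1.68 (SE 0.33), Mvk by 1.06 (SE 0.18) and Hsd17b7 by 0.72 (SE 0.22). In deficient mice Dhcr7 was again higher in OBs (1.65 ± 0.37) and Tm7sf2 lower (-1.41 ± 0.28).

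SREBP regulators were measured with 7 genes, and limma called 0 by genotype in either sort. At an unadjusted p under 0.05, 1 was lower in each, against 12.1% of all genes in MSCs and 4.78% in OBs. Srebf2, which encodes SREBP-2, was at 2985, 2998, 3028 and 3665 in wild-type and at 1598, 3043, 1668 and 1717 in deficient MSCs. E, G and H lay well under every wild-type library and F among them (-0.71 ± 0.20, adjusted p = 0.0872, and 0.0466 with DESeq2). DESeq2 called 508 of 14964 genes lower in MSCs. In OBs Srebf2 was at -0.13 ± 0.063 (adjusted p = 0.597). The difference between the sorts for Srebf2 was 0.58 ± 0.22 (adjusted p = 0.361, unadjusted p = 0.0181). Insig1, itself a sterol-regulated gene, was at 1839, 2064, 1561 and 2227 in wild-type and at 1142, 2187, 1358 and 1413 in deficient MSCs (-0.36 ± 0.20, adjusted p = 0.294). In OBs Insig1 was at 1359, 925, 942.5 and 1229.7 against 846, 854, 817 and 743, without overlap (-0.43 ± 0.13, adjusted p = 0.356). Srebf1, Scap, Insig2, Mbtps1 and Mbtps2 lay between -0.21 and 0.33 in MSCs and between -0.078 and 0.17 in OBs. Between wild-type sorts Srebf1, Insig1, Insig2 and Mbtps1 were called lower and Scap and Mbtps2 higher in OBs, in a comparison that called 69.9% of all genes, while Srebf2 was at -0.077 ± 0.080.

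Of 11 genes of the LXR pathway, efflux and oxysterols, 1 was called in MSCs (1.06% of all genes) and 4 lay below 0 (52.7% of all genes). At an unadjusted p under 0.05, 3 were higher (10.7% of all genes) and 1 lower (12.1% of all genes). Mylip, which encodes a ubiquitin ligase induced by LXR, was the only one of the 65 other pathway genes called in MSCs. It was at 2256, 1875, 1651 and 1575 in wild-type and at 3979, 2608, 3027 and 3099 in deficient MSCs, without overlap (0.79 ± 0.16, adjusted p = 0.0487). The call was lost without any 1 library other than F, without G and H together (adjusted p = 0.256), without the filter on low values (0.0524) and with edgeR (0.0525). Abca1, the cholesterol exporter, was at 1587.5, 1433, 1755 and 1292 in wild-type and at 9835, 2036, 4171 and 4721 in deficient MSCs, again without overlap (1.56 ± 0.36, adjusted p = 0.0608, and 7.36e-05 with DESeq2). Groups without overlap, with the deficient higher, made up 6.3% of all genes, and DESeq2 called 688 of 14964 genes higher. For both Mylip and Abca1, E was the highest deficient library and F the lowest, the reverse of their places in Hmgcs1, Fdps, Sqle and Cyp51. Apoe was at 0.69 ± 0.24 (adjusted p = 0.133) and Ch25h, the cholesterol 25-hydroxylase, at -1.55 ± 0.46 (adjusted p = 0.0997), so this list of 11 did not share 1 direction. In OBs 0 of the 11 were called by limma and 3 were higher at an unadjusted p under 0.05, against 4.17% of all genes. Abca1 was at 0.66 ± 0.31 (adjusted p = 0.560), with the deficient E library far above the rest at 2217, and Mylip and Apoe were at 0.38 ± 0.12 and 0.32 ± 0.091.

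Uptake and fatty acid genes were given as the neighbouring arms of the SREBP program. Lipa, the lysosomal lipase, had the smallest p of the 12 uptake genes in MSCs (-0.51 ± 0.15, adjusted p = 0.0973), where 3 were lower at an unadjusted p under 0.05 (12.1% of all genes) and the median was -0.13. Of 12 fatty acid synthesis genes limma called 0 in either sort, with 2 lower at an unadjusted p under 0.05 in MSCs (12.1% of all genes) and 5 in OBs (4.78% of all genes) and medians of -0.10 and -0.20. Scd2, a stearoyl-CoA desaturase, was at -0.94 ± 0.25 in MSCs (adjusted p = 0.0811) and -0.44 ± 0.10 in OBs (adjusted p = 0.242, and 0.00148 with DESeq2), and Fads2 at -0.75 ± 0.29 and -0.34 ± 0.074. The non-sterol isoprenoid branch, which takes the product of Fdps, had medians of 0.086 in MSCs and -0.039 in OBs, with 0 of 11 genes at an unadjusted p under 0.05 in either. Its smallest p was that of Fntb in MSCs (-0.46 ± 0.25, adjusted p = 0.298) and of Pdss1 in OBs (0.26 ± 0.16, adjusted p = 0.648).

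**Figure D4:**
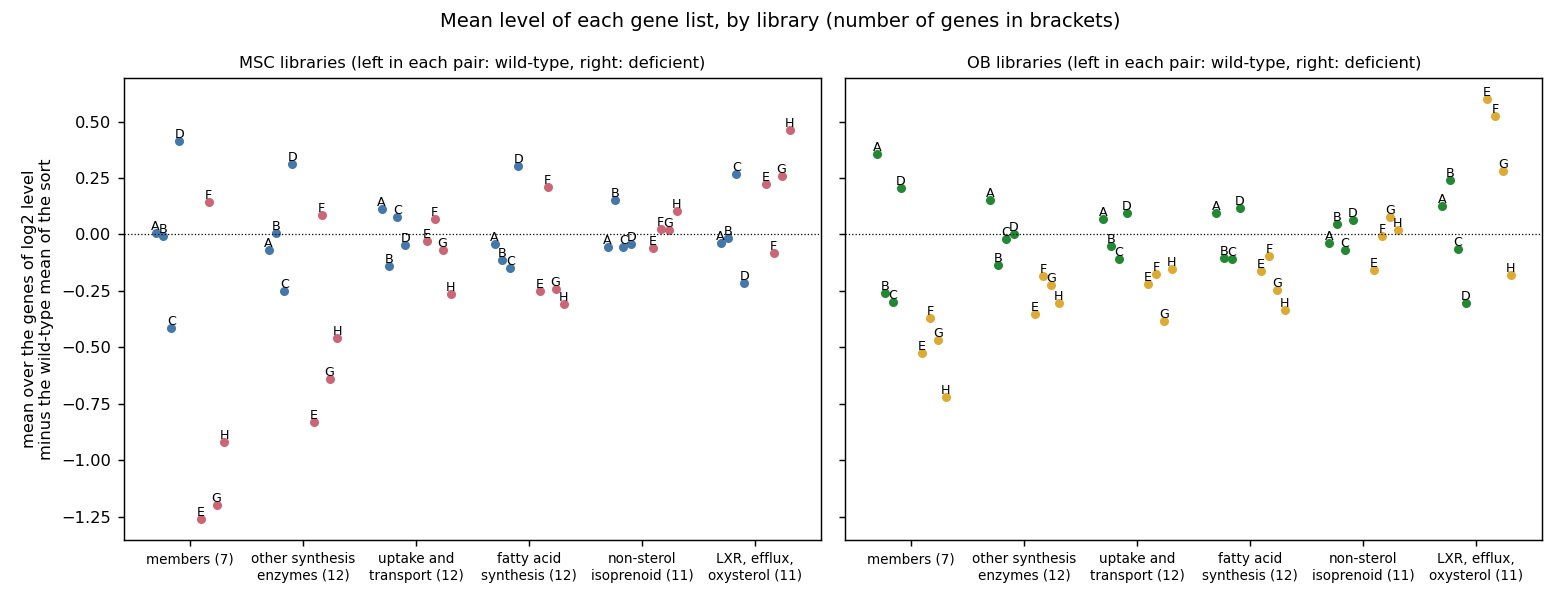
Mean over the genes of a list of the log2 level minus the wild-type mean of the same sort (vertical axis), per library lettered by mouse, for the members and 5 neighbouring lists. The members spread from -1.26 (E) to 0.42 (D) in MSCs, and the non-sterol isoprenoid list stays between -0.062 and 0.15 there.

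Members varied together from library to library within groups, least so Fdft1. Pearson's r of the deviations from the group means over 16 libraries ran from -0.19 to 0.94 over the 21 pairs of members (median 0.47). Over the 6 pairs with Fdft1 the median was -0.006, and over the 15 pairs without it 0.594. Over the 10 pairs of Hmgcs1, Mvd, Fdps, Sqle and Cyp51 it was 0.835, with a lowest value of 0.34. These are the members with a lower mean in deficient MSCs, so that grouping comes from the same data. Lss, left out of it, had r = 0.529 with Hmgcs1, where Mvd had 0.355. These correlations describe libraries that share a size factor across genes and carry no test. Among 12573 other genes with a mean of at least 50, those among the 10 most like the mean deviation of the members over the 16 libraries included Insig1 (r = 0.963), Msmo1 (0.947), Gfpt1 (0.944), Gbf1 (0.937), Lman1 (0.933), Slc25a15 (0.925), S100a1 (0.916), Camk2b (0.911) and Nfatc2 (0.909). Insig1 and Msmo1 are in the cholesterol lists used here. Gfpt1 is the first enzyme of hexosamine synthesis, and Gbf1 and Lman1 act in traffic between the endoplasmic reticulum and the Golgi. Below 0 lay Abca1 (r = -0.64, rank 11898 of the 12573), Nr1h2 of the LXR list (-0.66, rank 12019) and Ggps1 (-0.71, rank 12265). Ggps1 encodes geranylgeranyl diphosphate synthase. Many genes outside these lists had a lower r.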

How the data were processed

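The submitters deposited 1 table for the 16 libraries (poly(A) RNA, NEBNext Ultra libraries, per the labels' protocols). Its values are a signal per gene symbol, read counts divided by 1 size factor per library, as the authors deposited them. DESeq2 1.24.0 and the mm10 build are named per the submitters' processing notes. For the aligner, counting program, annotation and strand, the entry is: not given in the sources used here. In every library 100.0% of values were whole reads within 0.01 after multiplying back. Reads without molecular identifiers are not independent molecules. Finding 0 reads leaves room for 3, which is 3.52 to 4.51 as a normalized count for MSC libraries and 1.95 to 2.36 for OB libraries, counting error only. All 16 value columns matched a sample title.

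From these, log2(value + 1) was fitted with limma 3.58.1 (R 4.3.3, empirical Bayes with trend) over genes at 10 or more in at least 4 of the fitted libraries, 8 per comparison and 16 for the interaction. Fold changes are on this log2(value + 1) scale, and p-values were adjusted by Benjamini-Hochberg over all genes tested. The code was tested on simulated data. Recovered reads were also tested with DESeq2 1.42.0 and with the quasi-likelihood test of edgeR 4.0.16 after TMM scaling. Other alternatives changed the pseudocount (5), dropped the filter or raised it to 50, normalized by quantiles, left out libraries, or took the mouse as a block. On recovered reads edgeR called 147 genes in MSCs and 4 in OBs.

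Members, lists and tests were chosen with earlier results of these data known. The naming rule takes the members, all 12 other synthesis enzymes, all 7 SREBP regulators, called genes of other lists (up to 4 per direction) or else the smallest p, and the 10 genes of most similar pattern. Genes that the rule takes between sorts were in part left out for length, and some genes of these lists are not reported here. In MSCs Abca1, Apoe, Ch25h and Fads2, in OBs Abca1, Mylip and Scd2, and Ggps1, Nr1h2 and Abca1 among the correlations were named after their values were seen or as counterparts of genes named elsewhere. The Adgre1 marker was found under an older symbol and Ighm was not used here. Libraries of the same animal number were paired by the labels' number. Deviations from the group means had a correlation of 0.051 to 0.413 between the MSC and OB library of a mouse, the highest with its own number for 7 of 8. With transcripts typical of each sex in every library, how many animals stand behind a library is not known here.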

Additional observations from a re-analysis of the deposited data

Results flagged for a closer look

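Among 37 cholesterol genes in 4 groups of 4 libraries, 16 of 148 groups held a library whose gap to its nearest neighbour, as a share of the range of its group, was above Dixon's 95% critical value. Chance flags about 5% of groups, or about 7.4 of 148, and no member was among the 16. The deficient MSC library F stood apart in 5 cases, being the highest each time: Msmo1 was at 531 against 156 to 215 in the other deficient MSCs, Ebp at 589 against 349 to 378, Sc5d at 505 against 293 to 320.0, Srebf2 at 3043 against 1598 to 1717, and Scd2 at 3947 against 1676 to 1923.

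The wild-type MSC library D was the highest in 4 cases. Pmvk was at 316 against 204 to 219, Tm7sf2 at 207 against 81.6 to 98.6, Hsd17b7 at 796 against 371 to 433, and Srebf2 at 3665 against 2985 to 3028. In wild-type MSC C, Sc5d was low, at 355 against 538 to 559. In deficient MSCs, Mvk was low in H (129 against 179 to 189.5) and Insig2 high in E (1399 against 943 to 1001).

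In OBs, Tm7sf2 was low in deficient H (30.1 against 45.6 to 47.5), as was Srebf1 (1393 against 1737 to 1790.3). Srebf2 was low in wild-type B (2824 against 3036 to 3072), and Abca1 was high in deficient E (2217 against 748 to 885).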

How the results depend on the processing

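The number of members called by genotype was 0 in MSCs under every alternative except without deficient F (0 to 5 with 1 library left out), and 0 in OBs except with DESeq2 (3). Of other pathway genes in MSCs, 1 was called, but 0 without the filter, with edgeR and without G and H, 6 with DESeq2, and 0 to 16 with 1 library left out. In OBs the count of 0 became 6 with DESeq2, 1 without E and F, and 0 to 1 with 1 library left out. For the difference between sorts it was 0 to 3 with 1 library left out (3 without F). In deficient libraries the 1 member called between sorts became 2 with a pseudocount of 5, edgeR, DESeq2 or the mouse as a replicate block, and 1 to 3 with 1 library left out. Pairing by mouse (the replicate block) gave 4 members in wild-type libraries against 3, changing Cyp51 only, and 0 for the difference.

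Signs reversed as follows, none of them for a called value. In MSCs, Lss was at 0.0839 (quantile normalization), 0.0936 (edgeR), 0.0986 (DESeq2) and 0.496 (without G and H), and from -0.270 to 0.239 with 1 library left out. Tm7sf2 was at -0.039 (edgeR), -0.036 (DESeq2) and -0.022 (without G and H), and from -0.12 to 0.33 with 1 left out. Mbtps2 was at -0.052 without G and H, Pmvk from -0.25 to 0.070 and Ebp from -0.16 to 0.17 with 1 left out. In OBs, Mbtps1 was at 0.0074 (quantile normalization), 0.0097 (edgeR) and 0.0034 (DESeq2), and from -0.037 to 0.0048 with 1 left out. Without E and F, Srebf1 was at -0.0044 and Insig2 at -0.18, the latter from -0.067 to 0.31 with 1 left out. Between wild-type sorts Lss was at 0.0254 with quantile normalization, which moves the median of all genes from 0.013 to 0.17, and from -0.26 to 0.023 with 1 left out. Between deficient sorts Sqle was at -0.016 (edgeR) and -0.073 (DESeq2), and with 1 left out Sqle ranged from -0.15 to 0.52, Mvd from -0.16 to 0.58, Fdps from -0.063 to 0.88 and Cyp51 from -0.13 to 0.68. The difference between sorts for Hmgcs1 was -0.0018 (quantile normalization), -0.13 (edgeR) and -0.13 (DESeq2), and -0.29 to 0.32 with 1 left out. Where libraries or genes were not removed, the cause was not tested.

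Over all genes, calls in MSCs went from 159 to 1196 with DESeq2 (0 without wild-type B or without G and H, 2261 without F) and in OBs from 4 to 194 with DESeq2, 108 without deficient H and 88 without E and F. For the difference between sorts they went from 2 to 127 with DESeq2 and 571 without deficient MSC F. With edgeR 87 were higher and 60 lower in MSCs, against 75 and 84 with limma. Members had at least 19 reads in each library, so depth limits Mvd most.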
